A study of Homo sapiens with 14 samples.

Results

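The genes of the proteasome were followed in CWR22RV1, a cell line of human prostate cancer, under inhibitors of fucosylation and sialylation. They were taken by symbol, as genes named PSMA, PSMB, PSMC, PSMD, PSME, PSMF or PSMG with a number, without pseudogenes or antisense transcripts and with a mean of at least 10 counts in the control libraries. Of the 27819 genes shared by the count tables, 55 symbols fitted the spelling and 44 genes met the rule. One of them, PSMC3IP, encodes a recombination factor and shares only the spelling, so it is given apart from the other 43.

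Each treatment lasted 72 h. The controls were 3 libraries of cells given the solvent DMSO. Fucotrim I was used at 30 μM in 3 libraries and Fucotrim II at 60 μM in 2. SGN-2FF at 100 μM and P-SiaFNEtoc at 2 μM were sampled with 3 libraries apiece. Fucotrim I and Fucotrim II are rhamnose-1-phosphate derivatives aimed at GMDS, the enzyme that opens the de novo route to GDP-fucose. SGN-2FF is 2-fluorofucose, which enters through the fucose salvage pathway, and P-SiaFNEtoc is a fluorinated sialic acid aimed at sialyltransferases. All libraries come from 1 cell line, the doses differ between the inhibitors, and the same 3 DMSO libraries serve each comparison with the vehicle. The libraries held 12553094 to 19981453 counts on genes. The epithelial keratin gene KRT8 (456 to 827 CPM) was read in all 14 libraries, CD3E of T cells was at 0 and PTPRC, PECAM1 and VWF of immune and endothelial cells reached at most 3 counts in any library. Of the stromal genes COL1A2 reached 3 counts and DCN 13, while COL1A1 was read at 15.9 to 29.2 CPM, with 16.9 to 18.1 CPM in DMSO and 29.2 and 23.2 CPM with Fucotrim II, and its part in the results was not tested. Mitochondrially encoded genes took 5.98 to 7.03% of the counts in DMSO, 8.67 to 14.2% with Fucotrim I, 12.2 to 17.03% with Fucotrim II, 8.27 to 8.69% with SGN-2FF and 6.11 to 6.83% with P-SiaFNEtoc.

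The proteasome degrades proteins that carry ubiquitin chains. Its 20S core is a barrel of alpha rings, which form the gate, and beta rings, which hold the peptidase sites. The 19S particle caps the core, binds ubiquitin chains, removes them and threads the substrate into the barrel with a ring of ATPases. Other caps replace it: PSME1 and PSME2 together form the interferon-inducible PA28 ring, PSME3 forms a nuclear ring of its own, and PSME4 encodes PA200. PSMG1 to PSMG4 encode chaperones that build the core, and PSMD5, PSMD9 and PSMD10 encode chaperones that build the ATPase ring. In immune-type proteasomes PSMB8, PSMB9 and PSMB10 take the places of PSMB5, PSMB6 and PSMB7. Transcription of subunit genes is raised by NRF1, the product of NFE2L1, when proteasome activity falls short.

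Promoter stretches of 6 members are shown, 2 of members that fell and 4 of members that rose in the results given further on. Each holds the 200 bases before the start site and the first 30 bases from it, as given in the RefSeq table for GRCh38.p14, which matches the hg38 coordinates of the counts, and is written 5′ to 3′ in the direction of the gene. Capitals mark matches on either strand to TGACNNNGC, the core bound by NRF1 and NRF2 with small MAF proteins, to CCAAT, the NF-Y box, and to GAAA followed after any 2 bases by GAAA, a core of interferon response elements called the paired GAAA motif here. PSMD14 (chr2:161308225-161308454, plus strand) and PSMD12 (chr17:67366548-67366777, minus strand) encode 19S subunits. PSMB10 (chr16:67936821-67937050, minus strand) encodes an immunoproteasome peptidase. PSMG4 (chr6:3258747-3258976, plus strand) encodes a core assembly chaperone. PSME1 (chr14:24135994-24136223, plus strand) and PSME2 (chr14:24146581-24146810, minus strand) encode the PA28 ring and lie near each other on opposite strands.
PSMD14: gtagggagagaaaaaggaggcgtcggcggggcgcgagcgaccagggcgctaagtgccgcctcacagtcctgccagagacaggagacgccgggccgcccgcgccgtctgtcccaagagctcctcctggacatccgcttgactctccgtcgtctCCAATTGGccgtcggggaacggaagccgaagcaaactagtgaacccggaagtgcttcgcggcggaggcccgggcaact
PSMD12: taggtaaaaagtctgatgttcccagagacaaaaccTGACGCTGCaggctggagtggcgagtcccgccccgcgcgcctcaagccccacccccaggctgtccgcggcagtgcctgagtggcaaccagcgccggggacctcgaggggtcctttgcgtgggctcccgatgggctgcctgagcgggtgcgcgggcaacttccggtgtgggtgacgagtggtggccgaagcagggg
PSMB10: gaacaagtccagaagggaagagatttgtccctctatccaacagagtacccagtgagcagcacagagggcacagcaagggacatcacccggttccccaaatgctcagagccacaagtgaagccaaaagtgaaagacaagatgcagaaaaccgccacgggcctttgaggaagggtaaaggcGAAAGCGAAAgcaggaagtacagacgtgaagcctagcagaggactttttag
PSMG4: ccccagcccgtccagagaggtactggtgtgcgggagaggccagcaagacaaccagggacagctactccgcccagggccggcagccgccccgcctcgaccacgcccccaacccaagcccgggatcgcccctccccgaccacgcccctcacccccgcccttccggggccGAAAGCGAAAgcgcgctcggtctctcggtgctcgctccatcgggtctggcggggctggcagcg
PSME1: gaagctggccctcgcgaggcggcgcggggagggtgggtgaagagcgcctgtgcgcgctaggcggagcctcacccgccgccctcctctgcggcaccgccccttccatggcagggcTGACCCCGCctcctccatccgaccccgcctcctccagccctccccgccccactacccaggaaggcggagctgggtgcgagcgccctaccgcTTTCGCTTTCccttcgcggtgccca
PSME2: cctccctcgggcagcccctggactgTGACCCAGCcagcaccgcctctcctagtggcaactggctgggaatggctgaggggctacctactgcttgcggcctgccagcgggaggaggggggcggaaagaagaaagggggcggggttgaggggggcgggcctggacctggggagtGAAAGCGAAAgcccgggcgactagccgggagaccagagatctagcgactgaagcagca
PSMD14 holds CCAAT at -48 and, overlapping it on the other strand, at -45, with the start site as 0 and the first base of the match given. PSMD12 holds TGACNNNGC at -165. The paired GAAA motif lies at -21 in PSMB10, -33 in PSMG4 and -28 in PSME2, and its complement begins at 5 in PSME1. This last motif was added to the search after the promoters had been read.

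Not every proteasome gene could be read from the tables. PSMB8 was at 0 in all 14 libraries, PSMB9 at 0 or 1 count and PSMB3, an indispensable beta subunit, at 0 to 20 counts. Several genes beside them that every cell uses were as low: RPS18 of the small ribosomal subunit had 0 to 2 counts, DAXX 0 to 6 and CSNK2B 0 to 4 near PSMB8 and PSMB9 on chromosome 6, and MRPL45 had 0 to 2 near PSMB3 on chromosome 17. BAG6, also near PSMB8 and PSMB9, had 228 counts in DMSO replicate 2 and 0 to 4 in the other libraries. Other neighbours were read: BRD2 had 92 to 162 counts and RPL23, near PSMB3, 8451 to 17296. A listing at 0 of these genes is therefore not read as absence of their mRNA, and the cause was not tested. PSMB3 was at 0 in all 5 Fucotrim libraries and at 4 to 20 counts in the other 9, and its neighbours PCGF2, PIP4K2B and CISD3 were likewise at 0 in those 5 libraries, so no difference in PSMB3 is given. PSMA8 of testis and PSMB11 of thymus had at most 2 counts. The mRNAs of 2 of the 3 immune-type peptidases are thus outside the data, and PSMB10 alone stands for them.

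In DMSO the level per kilobase of canonical transcript was highest for PSMB4, a beta subunit without a peptidase site, at 399 CPM per kb, followed by PSMA7 at 229.7 CPM per kb. The peptidase genes PSMB6 and PSMB5 stood at 181 and 158 CPM per kb, and PSMB7 at 67.3 CPM per kb. PSMB10 had 13.2 CPM per kb and PSMF1, which encodes the proteasome regulator PI31, 13.3 CPM per kb. Replicates were close: the coefficient of variation of a member over the 3 DMSO libraries ran from 0.41 to 7.65%, with a median of 3.74%. All 43 members together took 6123, 6080 and 5989 CPM in the DMSO libraries.

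With Fucotrim II the mRNAs of most subunits of the core and of the 19S particle fell. Those of the interferon-inducible cap, an immune-type peptidase and a core assembly chaperone were higher, though a smaller share of members than of all genes rose. Of these rises only that of the chaperone gene PSMG4 also held with offsets for GC and length, which are described further on. Of the 44 members 28 were lower and 5 higher at an adjusted p-value under 0.05 (edgeR quasi-likelihood test, Benjamini-Hochberg over 14617 genes). The background was 25.7% of all genes lower and 25.6% higher, against 63.6 and 11.4% of the members. The median log2 fold change of the members was -0.25, beside 0.01 over all genes tested. Among the 30 subunits of the core and the 19S particle 24 were lower and none higher, and PSMA5, PSMB4, PSMB5, PSMC5, PSMD4 and PSMD8 were not called. The mRNA measured here is a share of each library, and fewer transcripts per cell cannot be told apart from a change in the rest of the RNA.

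The summed level of the 13 core genes was 2270, 2295 and 2244 CPM in DMSO and 1821 and 1970 CPM with Fucotrim II. For the 17 genes of the 19S particle it was 2774, 2711 and 2691 CPM in DMSO and 2069 and 2278 CPM with Fucotrim II. In both sums the Fucotrim II libraries lay below every DMSO library. The 2 Fucotrim II libraries differed from each other more than the DMSO libraries did.

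**Figure D1:**
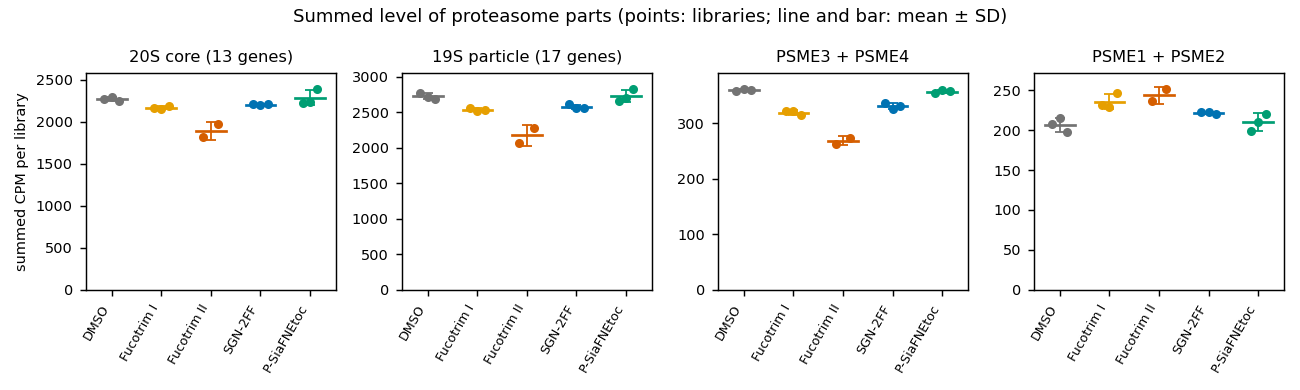
Summed CPM per library (y axis, from 0) of the 20S core genes, the 19S particle genes, PSME3 with PSME4, and PSME1 with PSME2, for the 5 groups on the x axis. Points are libraries, lines and bars the mean ± SD. The core falls from 2270 ± 25.4 CPM in DMSO to 1895 ± 105 CPM with Fucotrim II, whereas PSME1 with PSME2 goes from 207 ± 8.81 to 244 ± 10.5 CPM.

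Within the 19S particle 9 of 11 non-ATPase subunits and 5 of 6 ATPases were lower with Fucotrim II. PSMD14, the deubiquitinase that strips ubiquitin from substrates at the mouth of the particle, had 76.3, 78.8 and 71.2 CPM in DMSO and 42.3 and 44 CPM with Fucotrim II. Its fall was the largest of the family, with a log2 fold change of -0.81 ± 0.07 (SE) and an adjusted p of 3.58e-05 by edgeR. PSMD1, the large scaffold subunit of the base, had 202, 201 and 202 CPM in DMSO and 120 and 132 CPM with Fucotrim II. PSMD12, a subunit of the lid, had 78.4, 73.1 and 71.3 CPM in DMSO and 50.9 and 43.3 CPM with Fucotrim II. For these 3 genes no treated library reached the lowest control. The log2 fold changes were -0.68 ± 0.07 (SE) for PSMD1 and -0.66 ± 0.09 for PSMD12, with edgeR adjusted p-values of 4.84e-05 and 0.000251. PSMD11, another lid subunit, fell by 0.60 on the log2 scale. PSMD2, a base subunit that docks ubiquitin-like domains, had -0.54 ± 0.08, and among the ATPases PSMC6 had -0.52 ± 0.07 and PSMC1 -0.50 ± 0.07. These last 3 were named for this comparison after their values were seen. PSMD4, which encodes the ubiquitin receptor RPN10, was level at -0.01 ± 0.07 (95% limits -0.15 and 0.12). With offsets for GC and length, which are described further on, PSMD4 had -0.20 and was called lower (edgeR adjusted p = 0.00924).

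In the core 6 of 7 alpha subunits and 4 of 6 beta subunits were lower with Fucotrim II. PSMA4 of the alpha ring had 187, 195 and 186 CPM in DMSO and 130.2 and 124 CPM with Fucotrim II, a log2 fold change of -0.58 ± 0.06 (SE, edgeR adjusted p = 9.56e-05). Of the genes for the 3 standard peptidases, PSMB7 (trypsin-like site) went from 68.0, 67.5 and 63.3 CPM to 44.9 and 52.5 CPM, and PSMB6 (caspase-like site) from 154, 149.6 and 145 CPM to 104 and 126 CPM. Their libraries did not overlap, with log2 fold changes of -0.45 ± 0.08 and -0.38 ± 0.08 and edgeR adjusted p-values of 0.00154 and 0.00417. PSMB5, the chymotrypsin-like peptidase and the site that clinical proteasome inhibitors block, had 162, 166 and 168 CPM in DMSO and 145 and 168 CPM with Fucotrim II. These values overlapped, the fold change was -0.08 ± 0.07 (95% limits -0.22 and 0.06), and PSMB5 was not called. This rested on single libraries: for PSMB5, Fucotrim II against DMSO gave 0.02 without Fucotrim II replicate 1 and -0.20 without Fucotrim II replicate 2, the latter called lower (edgeR adjusted p = 0.00748). PSMB4 was not called either (0.07 ± 0.07).

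The activators divided into pairs. PSME1 had 127, 125 and 117 CPM in DMSO and 138 and 147 CPM with Fucotrim II, and PSME2 went from 81.4, 89.9 and 80.7 CPM to 98.3 and 104 CPM. Both lay above every control, by 0.21 ± 0.07 and 0.26 ± 0.07 on the log2 scale (edgeR adjusted p = 0.0246 and 0.0121). PSME1 was not called without DMSO replicate 1, 2 or 3, and PSME2 not without DMSO replicate 1 or 3. PSME3 went the other way, from 239, 244 and 235 CPM to 170.2 and 189.8 CPM, and PSME4 from 119, 117 and 125 CPM to 92.2 and 83.8 CPM. They were lower by -0.42 ± 0.07 and -0.46 ± 0.07 (edgeR adjusted p = 0.000742 and 0.000649). PSME2 amounted to 34.1 to 36.9 per 100 of PSME3 in DMSO and to 54.9 and 57.8 with Fucotrim II. PSMF1 was not called (-0.08 ± 0.07, 95% limits -0.22 and 0.06).

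The other rises were in PSMB10, PSMG4 and PSMG3. PSMB10 had 12.5, 12.7 and 13.5 CPM in DMSO and 17.6 and 18.8 CPM with Fucotrim II (log2 fold change 0.49 ± 0.10, edgeR adjusted p = 0.00244). Beside PSMB7, whose place its product takes, it rose from 18.4 to 21.4 per 100 in DMSO to 35.8 and 39.1 per 100. PSMG4 had 19.3, 19.2 and 20.4 CPM in DMSO and 28.6 and 31.4 CPM with Fucotrim II, and its log2 fold change of 0.61 ± 0.09 was the largest rise of the family (edgeR adjusted p = 0.000345). PSMG3, whose product pairs with that of PSMG4, was higher by 0.28 ± 0.09 (edgeR adjusted p = 0.0267), while PSMG1 and PSMG2 were not called. PSMB10 shares 56.1% of its canonical exon bases with another gene annotated on the same strand, so its counts may be less certain than those of PSMG4. The count of 5 rises was 2 without DMSO replicate 1 or 3, 3 without DMSO replicate 2 and 6 without Fucotrim II replicate 1. PSMC3IP was lower by -0.33 ± 0.09.

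**Figure D2:**
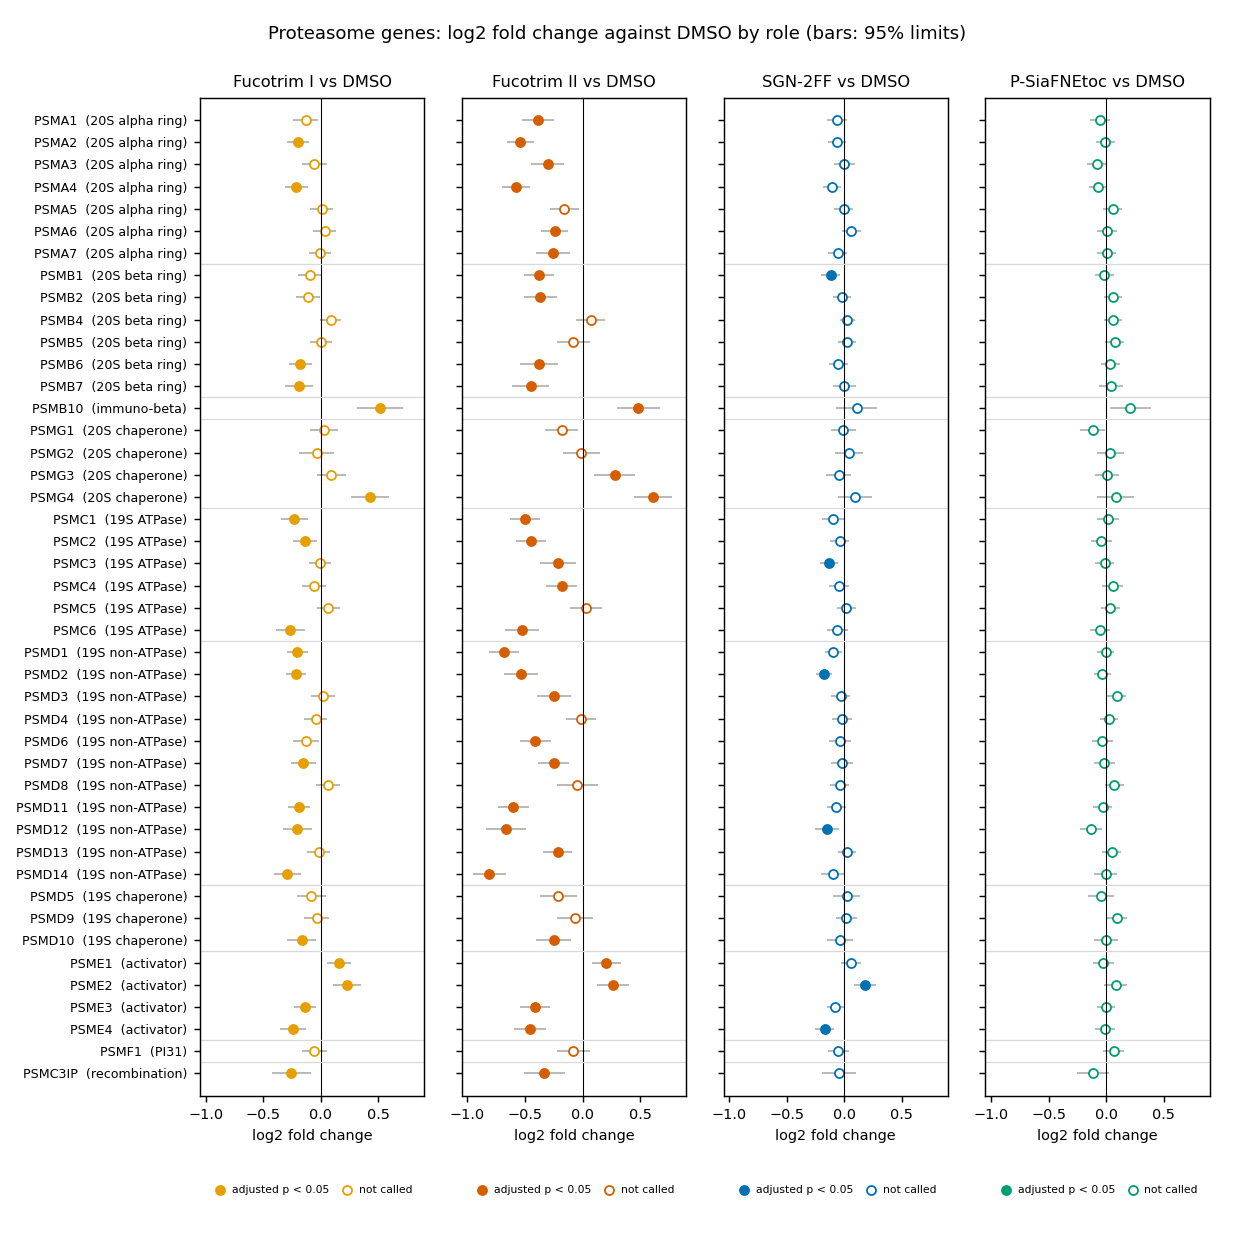
Log2 fold change against DMSO (x axis) of each of the 44 members (y axis, ordered by role) in 4 panels, 1 per inhibitor. Filled points passed an adjusted p-value under 0.05 and bars are 95% limits. With Fucotrim II 28 members lie to the left and 5 to the right, whereas with P-SiaFNEtoc no point is filled.

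The transcripts of the members that fell were poorer in G and C than those of the members that rose. With Fucotrim II the 28 lower members had a median GC content of 45.1% and a median length of 1610 bases, and the 5 higher members 53.2% and 965 bases. Across the 44 members Spearman's rho of fold change with GC was 0.52, and across all 14295 genes with a transcript it was 0.53, a description in which all genes share the same libraries. When a smooth trend over GC and length was taken out of each library as an offset, an alternative chosen after seeing the data, 28 members were again lower, 25 of them in both fits, and the median was -0.23. That fit called 23.0% of all genes lower and 22.9% higher. PSMD14 kept -0.67 (edgeR adjusted p = 5.23e-06) and PSMD1 -0.52 (4.61e-05), and PSMB6 had -0.69 (2.12e-06). Other falls were smaller with the offsets, with PSMD12 at -0.28 (0.00432), PSMA4 at -0.32 (0.00034) and PSMC6 at -0.18 (0.0169). PSMB5 had -0.29 and was called lower (0.000982). The rises mostly did not hold: PSMB10 had 0.01 (0.961), PSME1 0.03 (0.706), PSME2 0.08 (0.283) and PSMG3 -0.09 (0.275). Of the 5 higher members PSMG4 alone stayed higher, at 0.35 (0.00211). PSMA5 of the alpha ring, not called as fitted, was called higher with the offsets at 0.21 (edgeR adjusted p = 0.0428). It was named after its values were seen. The activators PSME3 and PSME4 stayed lower at -0.36 (0.000348) and -0.18 (0.0222).

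**Figure D3:**
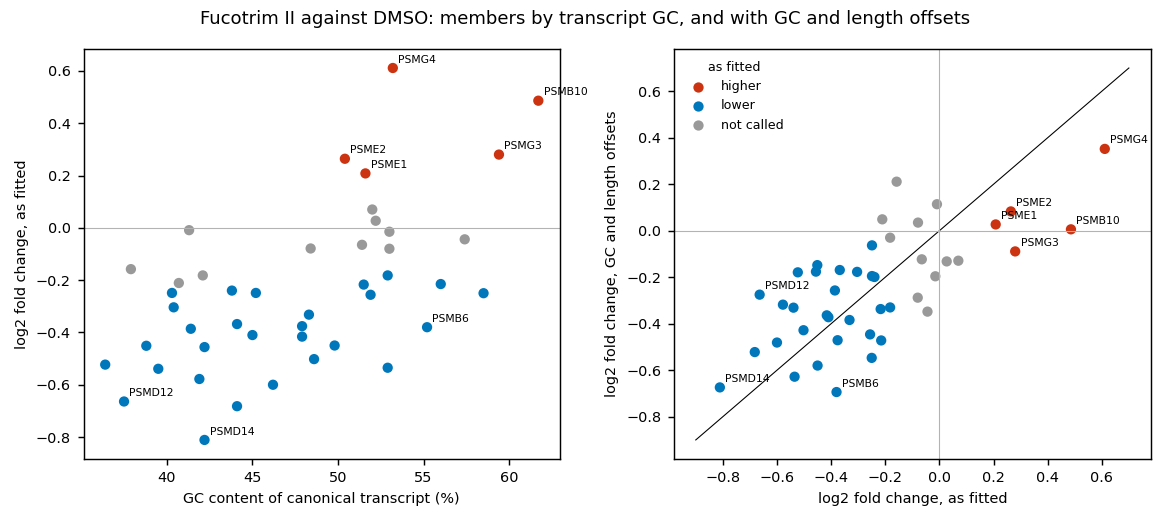
Fucotrim II against DMSO. Left, log2 fold change of each member (y axis) against the GC content of its canonical transcript in percent (x axis). Right, log2 fold change with GC and length offsets (y axis) against that as fitted (x axis), with the line of equality. The falls stay below 0 for most members, and PSMB10, PSME1, PSME2 and PSMG3 come to lie near 0.

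With Fucotrim I fewer members were called. Of the 44 members 17 were lower and 4 higher (background 22.1% lower and 21.6% higher over 14188 genes, against 38.6 and 9.1% of the members), and the median log2 fold change was -0.07. The members were thus lower more often and higher less often than the background share, and no test was made of either difference. PSMD14 had 59.4, 63.2 and 62.1 CPM, below all DMSO libraries, and was the largest fall at -0.29 ± 0.06 (SE, edgeR adjusted p = 0.000534). PSMC6 followed at -0.26 ± 0.06 and PSME4 at -0.24 ± 0.06. The peptidase genes PSMB6 (-0.18 ± 0.05) and PSMB7 (-0.19 ± 0.06) were lower and PSMB5 was level at 0.00 ± 0.05 (95% limits -0.10 and 0.10). The 4 rises were PSMB10 with 20.1, 15.9 and 19.5 CPM (0.52 ± 0.10, edgeR adjusted p = 0.000399), PSMG4 with 27.9, 23.98 and 27.3 CPM (0.43 ± 0.08, 0.000303), PSME2 (0.23 ± 0.06, 0.00515) and PSME1 (0.16 ± 0.05, 0.0182). PSME3 was lower by -0.13 ± 0.05 (edgeR adjusted p = 0.027).

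The lower calls with Fucotrim I changed more with the offsets than those with Fucotrim II, and their count also depended on single libraries. Without DMSO replicate 1 the number of lower members was 9, and with GC and length offsets it was 16 but only 8 were shared with the first fit. The fit with offsets called 19.1% of all genes lower. PSMB10 had 0.22 (edgeR adjusted p = 0.0558) with those offsets, and PSMG4 stayed higher at 0.28 (0.00483). PSMA5, not among the rises as fitted, was called higher with the offsets at 0.22 (0.00116). It was named after its values were seen. PSMD14 stayed lower at -0.21 (0.00147), as did PSMB6 at -0.36 and PSMB7 at -0.26. PSMB5, level as fitted, had -0.12 with the offsets and was called lower (0.0137). Without offsets, PSMB6 was not called when DMSO replicate 1 was left out. PSMB7 was not called without DMSO replicate 1 or 2 or Fucotrim I replicate 2. The calls of PSMC6 (-0.08, 0.188), PSME4 (-0.08, 0.157), PSME3 (-0.09, 0.0724), PSME1 (0.06, 0.32) and PSME2 (0.12, 0.0647) did not hold with the offsets. PSME3 was also not called without DMSO replicate 1, 2 or 3 or Fucotrim I replicate 3, nor PSME1 without DMSO replicate 3 or Fucotrim I replicate 3.

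The 2 Fucotrim treatments were compared directly, since both compounds are aimed at the same enzyme, at 60 and 30 μM. Fucotrim II had 9 members lower and none higher than Fucotrim I, where 3.46% of 14378 genes were lower and 6.04% higher. At an unadjusted p under 0.05 there were 24 members, and the DESeq2 test and limma-voom also called no member higher. The share of all genes at that unadjusted threshold was not counted. The 9 were PSMD14, PSMD1, PSMD12, PSMD11, PSMD2, PSMC2, PSMA2, PSMA4 and PSMA6, all subunits of the 19S particle or of the alpha ring. Of these PSMD2, PSMC2, PSMA2 and PSMA6 were named after their values were seen. No beta subunit was called, but the median of the beta ring was -0.22, beside -0.25 for the alpha ring and -0.26 for the 19S particle. PSMD14 was lower by -0.51 ± 0.09 (SE, edgeR adjusted p = 0.00334) and PSMD1 by -0.47 ± 0.08 (0.00386). The 2 treatments did not differ detectably in PSMB10 (-0.02 ± 0.13, 95% limits -0.27 and 0.23), PSME1 (0.06 ± 0.08, -0.10 and 0.21) or PSME2 (0.04 ± 0.09, -0.13 and 0.21). For PSMG4 the difference was 0.19 ± 0.11 (-0.02 and 0.40). With GC and length offsets the beta subunits PSMB6 (-0.329, edgeR adjusted p = 0.0036), PSMB1 (-0.325, 0.00608) and PSMB7 (-0.319, 0.0118) were called lower. PSMB2, PSMB4 and PSMB5 were not, and PSMB1, PSMB2 and PSMB4 were named after their values were seen. The count of 9 depends on single libraries: it was 2 without Fucotrim I replicate 2 or replicate 3, 6 without Fucotrim I replicate 1, 12 without Fucotrim II replicate 1 and 18 without Fucotrim II replicate 2. Without Fucotrim II replicate 1, 1 member was higher. With the replicate numbers of the titles as a block PSMD14 (edgeR adjusted p = 0.0944) and PSMD1 (0.138) were not called. With the numbers of the library names as a block both were called. For the fits without a library or with a block the share of all genes called is not given. Their counts are therefore not read as a result about the members. The doses differ, so these values compare treatments and not the compounds dose for dose.

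**Figure D4:**
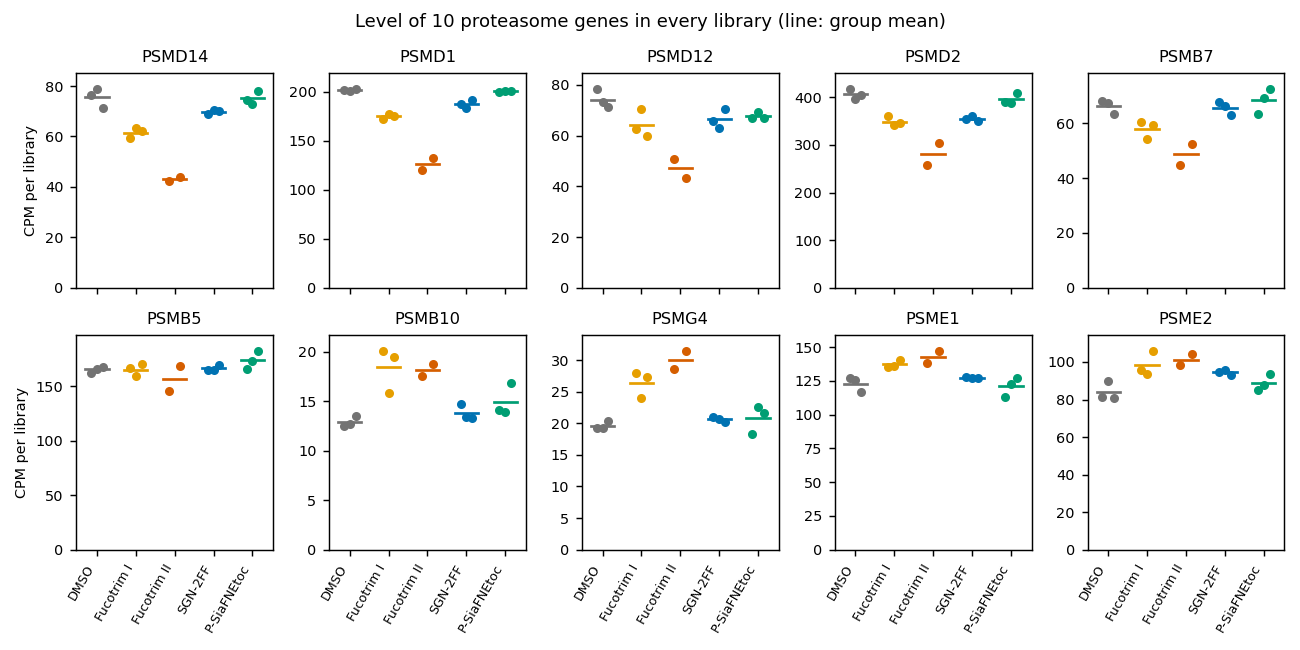
CPM in every library (y axis, from 0) of 10 members for the 5 groups on the x axis, with lines at the group means. PSMD14 falls from 71.2 to 78.8 CPM in DMSO to 42.3 and 44 CPM with Fucotrim II, PSMB5 overlaps, and PSMB10 rises from 12.5 to 13.5 CPM to 15.9 to 20.1 CPM with Fucotrim I.

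With SGN-2FF few members passed the test. Of the 44, 5 were lower and 1 higher (background 9.08% lower and 11.5% higher over 14312 genes, against 11.4 and 2.3% of the members), and the median was -0.04. All 3 libraries lay below every DMSO library for 13 members and above for 2. The share of all genes with such libraries was not counted, so these counts are not read as a result about the members. PSMD2 had 355, 362 and 350 CPM against 417, 396 and 404 CPM in DMSO, a log2 fold change of -0.18 ± 0.04 (SE, edgeR adjusted p = 0.000584). PSME4 (-0.17 ± 0.04), PSMD12 (-0.15 ± 0.05), PSMC3 (-0.13 ± 0.04) and PSMB1 (-0.12 ± 0.04) were the other falls. PSME2 was the single rise, with 94.6, 96.0 and 93.2 CPM, all above the DMSO libraries (0.18 ± 0.05, edgeR adjusted p = 0.0087). With GC and length offsets PSME2 (0.10, edgeR adjusted p = 0.0721), PSME4 (-0.10, 0.0558) and PSMD12 (-0.06, 0.343) were not called, whereas PSMD2 (-0.21), PSMC3 (-0.22) and PSMB1 (-0.17) stayed lower. PSMD14 (-0.10 ± 0.05, 95% limits -0.20 and 0.00) and PSMB10 (0.11 ± 0.09, -0.07 and 0.28) were not called. In a single fit of all 14 libraries 2 members were lower and none higher, and leaving out a single library gave 2 to 7 lower and 0 or 1 higher. There were 2 lower members without DMSO replicate 1 or SGN-2FF replicate 1 and 3 without DMSO replicate 3 or SGN-2FF replicate 2. PSME2 was not called without DMSO replicate 1, DMSO replicate 3 or SGN-2FF replicate 2. PSMC3 was not called in the single fit or without DMSO replicate 1 or SGN-2FF replicate 1. PSMB1 was not called by DESeq2, with a replicate block or in the single fit. It was also not called without DMSO replicate 1 or 3 or SGN-2FF replicate 1 or 2. PSMD2 was called under every alternative.

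With P-SiaFNEtoc no member was called (edgeR), while 7.33% of all 14259 genes were lower and 9.02% higher. At an unadjusted p under 0.05 there were 5 members, and the DESeq2 test and limma-voom called none. The share of all genes at that unadjusted threshold was not counted. The median log2 fold change was 0.00 and the members ran from -0.13 to 0.21. The largest value was that of PSMB10, with 14.1, 13.9 and 16.8 CPM against 12.5 to 13.5 CPM in DMSO (0.21 ± 0.09, edgeR adjusted p = 0.117, 95% limits 0.03 and 0.39). Its libraries lay above every control. For PSMD14 the limits were -0.10 and 0.09. With GC and length offsets 2 members were higher, PSMA5 (0.16) and PSMB2 (0.11), both named after their values were seen. That fit called 7.7% of all genes higher and 5.8% lower.

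Partners of the proteasome were followed with a list of 40 genes. With Fucotrim II, 37 of them could be tested, of which 15 were lower and 3 higher, that is 40.5 and 8.1%, against 25.7 and 25.6% of all genes. With Fucotrim I it was 10 and 4 of 36, or 27.8 and 11.1%, against 22.1 and 21.6% of all genes, so that the share of lower genes was near the background. Of the factors bound to the proteasome, USP14, UCHL5 and UBE3C, which act on ubiquitin, and TXNL1, a thioredoxin-like protein of the 19S particle, all 4 were lower with Fucotrim II. USP14 was at 191, 188 and 190.5 CPM in DMSO and 129.5 and 123 CPM with Fucotrim II (-0.60 ± 0.06, edgeR adjusted p = 7.45e-05), and UCHL5 had a log2 fold change of -0.63 ± 0.07. Of the 6 shuttle factors that bring ubiquitinated proteins 5 were lower. VCP, the segregase that unfolds substrates upstream of the proteasome, fell from 655, 644 and 630.5 CPM to 450 and 509 CPM. RPS27A, which encodes ubiquitin fused to a ribosomal protein, was higher at 0.39 ± 0.06, while UBB, a polyubiquitin gene, was not called. With GC and length offsets USP14 stayed lower at -0.22, and UCHL5 had -0.13 (edgeR adjusted p = 0.0848). POMP, the core maturation factor, was lower by -0.24 ± 0.07 with Fucotrim II (edgeR adjusted p = 0.0161) but had 0.16 (0.0596) with those offsets. With SGN-2FF 1 gene of the list was higher and 6 lower, and with P-SiaFNEtoc 4 were higher and 2 lower, each of 36. These shares were 2.8 and 16.7% with SGN-2FF (all genes 11.5 and 9.08%) and 11.1 and 5.6% with P-SiaFNEtoc (all genes 9.02 and 7.33%), the latter near the background. Genes of this list other than NFE2L1 and POMP were named after their values were seen.

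NFE2L1 was not called with Fucotrim II, where most subunits fell, and was lower with Fucotrim I and SGN-2FF. It had 241, 223 and 233 CPM in DMSO and 203, 184 and 195 CPM with Fucotrim I, below every control (-0.26 ± 0.05, edgeR adjusted p = 0.000433). With Fucotrim II it had 239.8 and 259.9 CPM, which overlapped DMSO (0.10 ± 0.07, 95% limits -0.03 and 0.23). The direct difference of Fucotrim II from Fucotrim I was 0.36 ± 0.08 (edgeR adjusted p = 0.0144), opposite in sign to that of the 9 subunit genes. It was lower with SGN-2FF (-0.17 ± 0.04, edgeR adjusted p = 0.00396) and level with P-SiaFNEtoc (0.03 ± 0.04). NFE2L2, which encodes NRF2, was lower with Fucotrim II at -0.44 ± 0.07. These are mRNA levels, and the NRF1 protein is controlled by its turnover and cleavage, which counts do not show.

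Of the 44 members 38 had promoters in the RefSeq table, which gives 250 bases before and 50 after each start. TGACNNNGC was found in 13 of them (34.2%, against 16.1% of 27305 genes) and CCAAT in 18 (47.4%, against 39.7%). This background of all genes in the promoter table, also used for the third motif, was not filtered by counts, unlike the members. Among genes tested with Fucotrim II, TGACNNNGC was present in 2193 and absent from 9147, and CCAAT was present in 4887 and absent from 6453. With Fucotrim II TGACNNNGC was in 2 of 4 higher, 6 of 24 lower and 5 of 10 members not called. CCAAT was in 0 of 4 higher, 13 of 24 lower and 5 of 10 not called, and over all genes tested 29.0% of those with CCAAT were lower, against 25.7% of those without it. The paired GAAA motif was in 6 of 38 promoters (15.8%, against 4.38% of all genes). It was in all 4 higher members with a promoter, namely PSMB10, PSMG4, PSME1 and PSME2, in 1 of 24 lower and in 1 of 10 not called. This count was made after the sequences and values were seen and is a description. Over all genes tested with Fucotrim II, 24.5% of the 412 with the paired GAAA motif were higher, against 24.7% of those without it.

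Counts of some members may be uncertain for reasons of annotation. The overlaps were found in the GENCODE annotation, and whether the counting used the same genes is not known. PSMA2 shares all, and PSMA6 81.4%, PSMA1 67.0% and PSMD9 28.8%, of its canonical exon bases with another annotated gene on the same strand. PSMC1 shares 26.1% of its 100-base windows with other loci, the pseudogenes PSMC1P1, PSMC1P3, PSMC1P5 and PSMC1P9. PSMC1 (83.2%), PSMC3IP (57.2%) and PSMD7 (51.6%) overlap a gene on the opposite strand, and the strand setting of the counting is not given in the sources used here. For PSMD14, PSMD1, PSMD12, PSMB7, PSMB5, PSMG4 and PSME3 none of these overlaps was found.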

How the data were processed

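RNA was measured by RNA-seq in 14 libraries of CWR22RV1 cells (5 groups, 72 h). According to the study's methods, the authors made stranded mRNA libraries, trimmed the single reads (Cutadapt), mapped these against hg38 (HISAT2) and assigned reads to genes by featureCounts. The deposited values are raw counts per gene in 4 tables. The annotation release, the strand setting and the treatment of reads with several matches are not given in the sources used here. Groups and replicate numbers came from the sample labels. The members and lists were chosen with earlier results of these data known.

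The 27819 genes shared by the tables were fitted with edgeR 4.0.16 in R 4.3.3 (robust quasi-likelihood test, TMM scaling, genes kept by a minimum count of 10 and a total of 15). Each inhibitor was fitted with DMSO alone, and Fucotrim II with Fucotrim I. P-values were adjusted by Benjamini-Hochberg over all genes, and genes under 0.05 were called. Standard errors are the fold change over the root of F, and 95% limits cover that error. Levels are CPM, library-size scaled counts, after TMM over all libraries, so a ratio of levels can differ slightly from a fitted fold change. Named genes were the peptidases, activators, PSMF1, PSMD4, PSMD14, NFE2L1 and POMP, with the 5 largest rises and falls per comparison among called members with non-overlapping libraries and a mean of at least 50 counts. DESeq2 1.42.0, limma 3.58.1 (voom), other filters and scalings, a replicate block, leaving out each library and offsets for GC and length were alternatives. The last was added after seeing the data. The fits were tested on simulated counts. Separate cultures are described by the study as biological repeats, and 2 Fucotrim II libraries were analysed here. Total counts of 12553094 to 19981453 per library limit precision mainly for low genes such as PSMB10. Some genes of the marker and partner lists entered the fits and counts but are not reported here by name.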

Additional observations from a re-analysis of the deposited data

Results flagged for a closer look

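The difference between the 2 Fucotrim treatments was tested directly, with both arms read against each other, and 6 genes and 1 count stood out. PSMD14 (-0.51), PSMD1 (-0.47), PSMD12 (-0.45), PSMD11 (-0.40) and PSMA4 (-0.36) were lower on the log2 scale with Fucotrim II than with Fucotrim I, and 9 members were lower in all. NFE2L1 was the exception, higher by 0.36. PSMD12, PSMD11, PSMA4 and NFE2L1 were not called without Fucotrim I replicate 2 or 3. How all 6 genes fared with a replicate block is given with the processing alternatives. The doses were 60 and 30 μM, so dose and compound cannot be told apart.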

How the results depend on the processing

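Over the named genes, 1093 of 1245 values under an alternative kept their direction and side of the threshold, 75 lost the call, 22 gained it and 55 changed sign. The median of all genes moved by at most 0.016 under any scaling. Where no cause is named for a change, the cause was not tested.

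Counts of members that moved by over 1.5 times were as follows. With GC and length offsets Fucotrim I had 2 higher, Fucotrim II 2 higher, SGN-2FF 0 higher and 9 lower, P-SiaFNEtoc 2 higher, and Fucotrim II against Fucotrim I 19 lower. In the same order, these fits called 18.7, 22.9, 11.5 and 10.8, 7.7 and 5.5% of all genes. At an adjusted p-value under 0.01, a stricter threshold by construction, Fucotrim I had 10 lower, Fucotrim II 2 higher, SGN-2FF 2 lower and the direct comparison 2 lower. In 1 fit of all libraries SGN-2FF had 0 higher and 2 lower and the direct comparison 26 lower. The DESeq2 test gave 3 lower for SGN-2FF. Outside the main fits and those with offsets, the share of all genes called is not given. Counts of members from the other fits, here and above, are therefore not read as a result about the members. Leaving out 1 library gave 3 to 4 higher and 9 to 18 lower for Fucotrim I, 2 to 6 and 21 to 33 for Fucotrim II, 0 to 1 and 2 to 7 for SGN-2FF, and 0 to 1 and 2 to 18 for the direct comparison.

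The replicate numbers were not taken to pair the samples. Each library's deviation from its group mean was correlated with that of the same-numbered DMSO library. The correlations were 0.311, 0.387 and 0.065 for Fucotrim I, 0.216, -0.079 and -0.239 for SGN-2FF and -0.096, 0.093 and 0.056 for P-SiaFNEtoc. For Fucotrim II they were -0.41 and -0.519 by the numbers 1 and 2 of the titles. The names of these 2 libraries carry the numbers 2 and 3, by which the correlations were 0.519 and 0.21. For each Fucotrim I library the same-numbered DMSO library gave the highest of its 3 correlations, the others running from -0.416 to 0.187. By the library names this also held for Fucotrim II replicate 1, but replicate 2 had 0.41 with DMSO replicate 1. It did not hold for SGN-2FF replicates 2 and 3 or P-SiaFNEtoc replicates 1 and 3. Whether the numbers pair the samples was not tested. With the title numbers as replicate block Fucotrim II had 2 higher and 19 lower and the direct comparison 0 lower. In that comparison PSMD14 (adjusted p = 0.0944 by edgeR), PSMD1 (0.138), PSMD12, PSMD11, PSMA4 and NFE2L1 were not called. PSME1 and PSME2 with Fucotrim II were not called either. With the library-name numbers as replicate block the direct comparison had 18 lower, and those 6 genes were called. The replicate block gave 4 higher and 21 lower for Fucotrim I, 1 and 4 for SGN-2FF and 0 and 0 for P-SiaFNEtoc.

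Sign changes were in values near 0 or came with GC and length offsets. With those offsets Fucotrim I had PSMB5 -0.12, PSMF1 0.008 and POMP 0.137, Fucotrim II PSMF1 0.035, PSMG3 -0.089 and POMP 0.157, and SGN-2FF PSMB5 -0.058, PSMB10 -0.03 and PSME1 -0.013. P-SiaFNEtoc had PSMB6 -0.04, PSME3 0.001, PSME4 0.063, PSMD4 -0.031, PSMD14 0.036, NFE2L1 -0.007 and POMP 0.007, and the direct comparison PSME1 -0.03, PSME2 -0.046, PSMF1 0.028, PSMD4 -0.045 and POMP 0.024. PSMB5 with Fucotrim I was -0.012 with no filter and -0.002 in 1 fit of all libraries. With a replicate block PSMB10 in the direct comparison was 0.023 (title numbers) or 0.044 (library-name numbers), and PSMD4 with Fucotrim II was 0.02 (library-name numbers). Leaving out 1 library gave -0.016 to 0.028 for PSMB5 and -0.098 to 0.016 for POMP with Fucotrim I, and -0.079 to 0.039 for PSMD4 with Fucotrim II. For PSMB5, Fucotrim II against DMSO gave -0.197 to 0.021. For SGN-2FF it gave -0.04 to 0.024 for PSMB7 and -0.05 to 0.014 for PSMD4. For P-SiaFNEtoc it gave -0.002 to 0.096 for PSMB7, -0.061 to 0.022 for PSME1, -0.02 to 0.016 for PSME3, -0.041 to 0.013 for PSME4, -0.044 to 0.027 for PSMD14 and -0.001 to 0.054 for NFE2L1. For the direct comparison it gave -0.186 to 0.034 for PSMB5, -0.121 to 0.043 for PSMB10, -0.003 to 0.09 for PSME2, -0.094 to 0.061 for PSMF1 and -0.024 to 0.096 for PSMD4.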
